A study of Drosophila melanogaster with 88 samples.

Results

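Acetylcholine is the main fast excitatory transmitter of the fly brain, and 10 genes of its synthesis, packing, breakdown and detection are described here. They were chosen by symbol: VAChT, ChAT and Ace act on the transmitter itself, nAChRalpha1, nAChRalpha2, nAChRalpha3, nAChRalpha5, nAChRalpha7 and nAChRbeta1 encode subunits of nicotinic receptors, and mAChR-A encodes a muscarinic receptor. All 10 symbols were found among the 17830 gene features of the male count table, and their gene identifiers were found among the 17421 genes of each female table. ChAT makes acetylcholine from choline and acetyl-CoA, VAChT loads it into synaptic vesicles, and Ace, the acetylcholinesterase, ends the signal by splitting it in the synaptic cleft. Nicotinic receptors are ligand-gated cation channels assembled from several subunits, and they carry most fast signalling between central neurons of insects. Muscarinic receptors such as mAChR-A act more slowly through G proteins.

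The study sequenced transcript 3′ ends from fly tissue in 88 libraries, which form 22 groups of 4. Male heads carrying VAP with the P58S change (P58S) or wild-type VAP (WT) were taken at 5, 15 and 20 days of age, and female heads and female guts of both genotypes at days 5 and 20. P58S is the fly counterpart of a change in human VAPB that causes a familial form of amyotrophic lateral sclerosis. A second set of male heads, at days 5 and 15, carried P58S and the glial driver Repo-Gal4 in every group. Its groups had a kay knockdown (KayKD), kay wild-type overexpression (KayWT), an arm named KaySCR, or the driver alone. kay is the fly Fos transcription factor gene. Repo-Gal4 acts in glia and not in neurons, the construct of KaySCR is not described in the labels, and neither is how the VAP alleles were carried. Separate flies for the 4 libraries of each group are not stated in the labels, and every p-value is set against library-to-library spread that may be technical only.

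Reads on genes numbered 2.48 to 16.5 M (M, 1000000 reads) per library in the male genotype set, 1.21 to 15 M in the driver set, 0.201 to 6.82 M in female heads and 0.937 to 9.46 M in female guts. Values are read counts per M reads on genes (CPM), scaled in males by the trimmed mean of M-values (TMM) and in females as deposited. Because each transcript gives its reads near the 3′ end, a gene's CPM does not grow with its length, and levels of different genes were set side by side without a length correction. Pan-neuronal markers fitted the labelled tissue, with the 10 neuron genes summing to 6878 to 11231 CPM in the male genotype heads. In guts the 9 of them in the female tables, which lack para, summed to 142 to 387 CPM. The targeted gene was checked first. Kay RNA averaged 199 ± 15.9 CPM in KayKD and 229 ± 23.3 CPM in KayWT against 208 ± 9.31 CPM in driver heads at day 5 (SD, n = 4 each), and neither arm passed the test at either age. It was higher in KaySCR at day 5, at 293 ± 27.5 CPM (log2 fold change 0.49 ± 0.117 SE, edgeR adjusted p = 0.00981), and not at day 15 (0.11 ± 0.116). The kay arms are therefore named by their labels. Vap33, the fly VAP gene, did not pass in any comparison and averaged 782 ± 20.3 CPM in P58S and 697 ± 31.3 CPM in WT male heads at day 5.

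VAChT and ChAT form 1 locus. On dm6, ChAT spans chromosome 3R from 18705501 to 18732344 and VAChT spans 18705501 to 18718916, both on the plus strand. They share the first exon block, 18705501 to 18706106, which is 606 bases long, and the other VAChT block, 18712425 to 18718916, lies inside a ChAT intron. The 3′ ends of the genes are separate, so 3′ reads tell their transcripts apart except for reads primed inside the shared block. Ace lies on 3R at 13222951 to 13259517 on the minus strand. nAChRalpha1 (24393896 to 24457157, minus strand) and nAChRalpha2 (24485428 to 24491147, plus strand) are neighbours further along 3R. nAChRalpha3 (8276200 to 8367169) and nAChRalpha7 (19327075 to 19348447) lie on the minus strand of the X, nAChRalpha5 on the plus strand of 2L (14040170 to 14094401), nAChRbeta1 on the plus strand of 3L (4429349 to 4435993) and mAChR-A on the minus strand of 2R. Exons of nAChRalpha3 overlap CG1636 by 251 bases and those of mAChR-A overlap CG13578 by 111 bases, both on the opposite strand. Whether the counting used strand is not given in the sources used here, so reads in those overlaps may belong to either gene.

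The nicotinic subunit nAChRalpha7 was the most abundant of the 10 genes in male heads. In P58S heads at day 20 it averaged 465 ± 31.2 CPM (SD, n = 4). nAChRalpha5 (349 ± 19.1 CPM) and Ace (335 ± 6.87 CPM) followed, with overlapping ranges, and then a run in which each gene overlapped the next: nAChRalpha1 (203 ± 13.1 CPM), nAChRbeta1 (202 ± 23.8 CPM), nAChRalpha3 (186 ± 7.93 CPM), VAChT (165 ± 30.8 CPM) and ChAT (137 ± 7.53 CPM). mAChR-A (50.8 ± 3.33 CPM) and nAChRalpha2 (9.13 ± 0.604 CPM) stood apart at the low end. In WT heads at day 5 nAChRalpha7 was at 682 ± 52.2 CPM, followed by Ace (459 ± 14.2 CPM) and nAChRalpha5 (436 ± 48.7 CPM), which overlapped. nAChRbeta1, a subunit that insecticides of the neonicotinoid class act through, was there at 337 ± 34.1 CPM, apart from both neighbours in the order. nAChRalpha1 (254 ± 20.1 CPM), nAChRalpha3 (236 ± 6.46 CPM), VAChT (220 ± 46.1 CPM) and ChAT (184 ± 16.3 CPM) again formed a run of overlapping ranges, above mAChR-A (73.9 ± 4.84 CPM) and nAChRalpha2 (13.3 ± 2.78 CPM).

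Among the reads of the 10 nicotinic subunit genes in male heads, nAChRalpha6, which is not among the 6 subunits chosen, held the largest share. It took 33.2% ± 1.55 of them at day 20 and 31% ± 2.55 at day 5 in P58S, and 31.5% ± 0.921 at day 20 and 26.8% ± 0.701 at day 5 in WT (SD, n = 4 each). nAChRalpha7 took 21% ± 1.02 at day 20 and 22.3% ± 0.7 at day 5 in P58S, and 19.3% ± 0.98 at day 20 and 24.4% ± 1.27 at day 5 in WT. nAChRbeta1 took 9.11% ± 0.92 at day 20 and 11.6% ± 0.6 at day 5 in P58S, and 10.4% ± 0.348 at day 20 and 12% ± 0.648 at day 5 in WT. The shares of nAChRbeta1 at the later age lay below those at day 5 in both genotypes, without overlap. In WT the share of nAChRalpha7 also fell without overlap, and those of nAChRalpha6 and nAChRbeta3 rose without overlap. In P58S the ages overlapped for nAChRalpha7, nAChRalpha6 and nAChRbeta3. All shares are parts of the same total, so they do not move independently.

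Comparing P58S with WT at each age asks whether the VAP change alters these genes. None of the 10 passed an adjusted p of 0.05 in male heads (edgeR quasi-likelihood test, Benjamini-Hochberg over the 9741 genes tested) at day 5, 15 or 20, when 1.93%, 1.1% and 1.9% of all genes did. DESeq2 called 0 at each age as well, and 2, 1 and 2 of the 10 had an unadjusted p under 0.05. The share of all genes under that level is not given here. Such values were common, since Vap33 at day 5, with an unadjusted edgeR p of 0.0303, ranked 1211 of the 9741 genes. At day 5 all 10 fold changes were above 0 (median log2 fold change 0.16, against 0 over all genes), at day 15 it was 7 of 10 (median 0.07; 6 of 10 without TMM scaling), and at day 20 it was 2 of 10 (median -0.1). Other lists moved with genotype at day 5. The 10 pan-neuronal genes had the same median, 0.16, with 9 above 0, 0 past the threshold in edgeR and 4 at an unadjusted p under 0.05, and their summed level was 8937 to 11231 CPM in P58S heads and 8207 to 8747 CPM in WT heads, without overlap. Of 8 photoreceptor genes 2 rose and 1 fell (median 0.17), with sums of 20741 to 26020 CPM in P58S heads and 15134 to 17397 CPM in WT heads, also without overlap. Of 8 glial genes 1 fell and 7 were below 0 (median -0.15). Their summed level went the other way, with overlap, at 5116 to 9291 CPM (mean 6563) in P58S heads and 4218 to 5578 CPM (mean 5004) in WT heads. Of 8 genes of other transmitters 1 fell (median 0.02), and 1 of 4 fat body genes fell (median -0.61). The part of these lists in the differences of the 10 genes was not tested.

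VAChT showed the largest difference at day 5, with 288, 297, 265 and 336 CPM in the 4 P58S libraries and 278, 175, 234 and 193 CPM in the 4 WT libraries. The lowest P58S library was below the highest WT library, replicate 1. The log2 fold change was 0.44 ± 0.137 SE (95% interval 0.16 to 0.71) with an edgeR adjusted p of 0.089, and without that WT library it was 0.56 with an adjusted p of 0.018. At day 15 VAChT read 180, 195, 174 and 240 CPM in P58S heads and 179, 200, 184 and 180 CPM in WT heads (log2 fold change 0.09, interval -0.19 to 0.37). At day 20 it read 174, 202, 152 and 130 CPM in P58S heads and 142, 144, 172 and 204 CPM in WT heads (log2 fold change -0.01, interval -0.3 to 0.27). The groups overlapped at both later ages.

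ChAT differed less at day 5, with 188, 202, 211 and 218 CPM in P58S heads and 201, 169, 194 and 171 CPM in WT heads (log2 fold change 0.16, interval -0.03 to 0.34). nAChRalpha3 was the only gene of the 10 whose day 5 groups did not overlap, with 262, 255, 284 and 276 CPM in P58S heads and 235, 241, 240 and 227 CPM in WT heads. Its log2 fold change was 0.19 ± 0.0858 SE and its edgeR adjusted p was 0.252; 2.81% of all genes had P58S libraries all above the WT libraries in the same way. At day 15 nAChRalpha7 was the only such gene, with 619, 620, 594 and 589 CPM in P58S heads and 514, 558, 553 and 517 CPM in WT heads (log2 fold change 0.18, adjusted p = 0.587 in edgeR; 3.9% of all genes). The others at day 15 lay between -0.04 (nAChRalpha5) and 0.21 (nAChRalpha2). At day 20 the P58S libraries lay wholly below the WT ones for 2 genes, against 3.97% of all genes. Ace had 338, 332, 342 and 326 CPM in P58S heads and 361, 375, 397 and 358 CPM in WT heads, and mAChR-A had 49, 55.8, 49.6 and 49 CPM in P58S heads and 68.8, 58.9, 61.2 and 59.9 CPM in WT heads. Their log2 fold changes were -0.16 (edgeR adjusted p = 0.546) and -0.29 (adjusted p = 0.279).

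**Figure D1:**
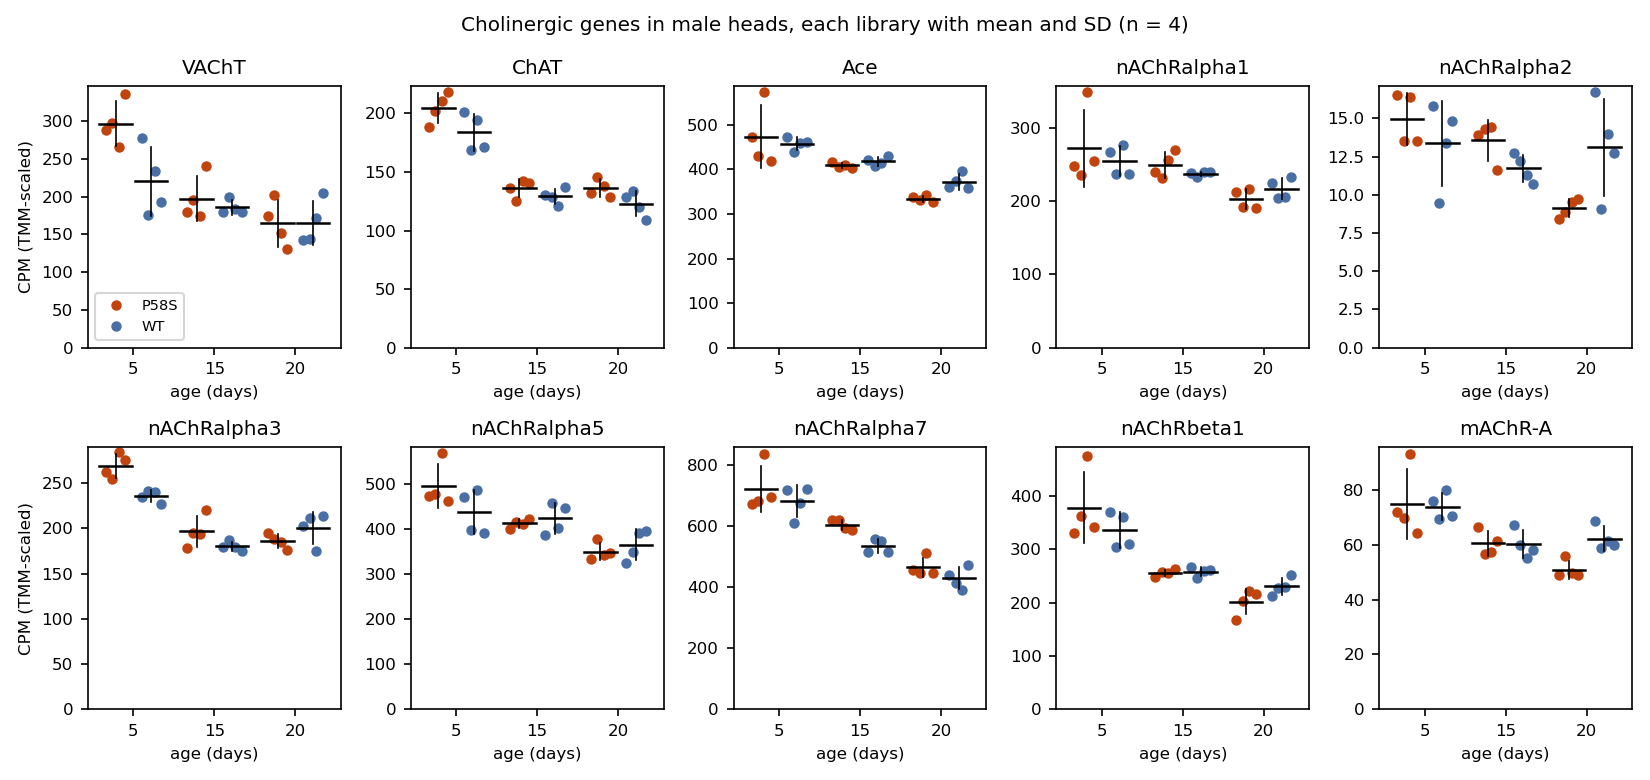
Level of each of the 10 genes in male heads (CPM, TMM-scaled, vertical axis from 0) at days 5, 15 and 20, with P58S left of WT at each age; points are libraries, and bars the mean and SD of 4. Points drop with age for most genes, and the genotypes overlap at most ages, as for VAChT at day 20 (165 ± 30.8 CPM in P58S and 166 ± 29.3 CPM in WT).

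Age moved these genes more than genotype did. In P58S male heads all 10 fell between days 5 and 20 (edgeR adjusted p from 1.49e-07 to 0.00982), while 15.9% of all genes changed and 8.61% fell, and the median log2 fold change of the 10 was -0.57 against 0 over all genes. The day 20 libraries lay wholly below the day 5 libraries for all 10 genes, which was so for 8.9% of all genes. In WT heads 4 of the 10 fell over the same interval, ChAT, Ace, nAChRalpha7 and nAChRbeta1, while 10.6% of all genes changed and 5.64% fell (median of the 10, -0.28, against 0.01 over all genes). The WT libraries of day 20 lay wholly below those of day 5 for 7 of the 10, against 8.11% of all genes. None of the 10 rose in either genotype. With library size alone in place of TMM, which moved the median of all genes to 0.03 in P58S and 0.1 in WT, all 10 still fell in P58S and 3 in WT, and 9 of 10 WT fold changes stayed below 0. Each age comparison within a genotype uses the same day 5 libraries.

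The change was present in part by day 15. In P58S heads 6 of the 10 fell between days 5 and 15, VAChT, ChAT, nAChRalpha3, nAChRalpha5, nAChRalpha7 and nAChRbeta1, with 13.5% of all genes changed and 7.54% lower. In WT heads 4 fell, ChAT, nAChRalpha3, nAChRalpha7 and nAChRbeta1, with 12.3% of all genes changed and 7.2% lower. All 10 fold changes were below 0 in both genotypes under TMM, with medians of -0.29 in P58S and -0.27 in WT, but with library size alone, which moved the median of all genes to 0.15 and 0.2, it was 8 of 10 in P58S and 6 of 10 in WT. In WT ChAT alone still passed under that scaling. The P58S calls of nAChRalpha5 and nAChRalpha7 held in 4 of 14 alternatives each. Without replicate 3 of day 5, which was the highest library for both, their edgeR adjusted p was 0.109 and 0.111. Leaving out any day 15 replicate also ended both, with adjusted p from 0.0615 to 0.117 for nAChRalpha5 and from 0.0751 to 0.119 for nAChRalpha7, as did leaving out day 5 replicate 2 for nAChRalpha5 (0.0656) and day 5 replicate 4 for nAChRalpha7 (0.053).

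Of the genes that handle the transmitter, ChAT fell in both genotypes by day 15 and held that level at day 20. Its P58S libraries read 188, 202, 211 and 218 CPM at day 5, 136, 125, 142 and 141 CPM at day 15 and 132, 146, 138 and 129 CPM at day 20. Its WT libraries read 201, 169, 194 and 171 CPM at day 5, 130, 129, 121 and 137 CPM at day 15 and 129, 134, 120 and 109 CPM at day 20. Every library of both later ages lay below every day 5 library of its genotype. At day 20 that was so for 8.9% of all genes in P58S and 8.11% in WT, and the share at day 15 is not given here. The day 20 log2 fold change against day 5 was -0.58 ± 0.0928 SE in P58S (edgeR adjusted p = 3.62e-05) and -0.58 ± 0.0933 SE in WT (adjusted p = 5.2e-05).

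VAChT, which shares its promoter region with ChAT, changed by -0.86 ± 0.138 SE on the log2 scale between days 5 and 20 in P58S (edgeR adjusted p = 6.12e-05) and by -0.41 ± 0.138 SE in WT, where it did not pass (adjusted p = 0.0549). Its WT libraries at days 5 and 20 overlapped, and its P58S libraries did not. In WT, VAChT passed when replicate 2 or 4 of day 5 or replicate 4 of day 20 was left out (adjusted p from 0.0182 to 0.0437), and under DESeq2 (0.0417). Ace fell by 0.5 on the log2 scale in P58S (SE 0.0845, edgeR adjusted p = 7.2e-05) and by 0.3 in WT (SE 0.0845, adjusted p = 0.018). The WT call of Ace was lost without day 20 replicate 1 (edgeR adjusted p = 0.0569) or replicate 4 (0.0509), and with library size alone (0.144).

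Among the nicotinic subunits, nAChRbeta1 had the lowest adjusted p of the 10 in P58S. Its P58S libraries read 331, 363, 476 and 342 CPM at day 5, 248, 257, 256 and 263 CPM at day 15 and 168, 203, 221 and 216 CPM at day 20. Its WT libraries read 370, 304, 361 and 310 CPM at day 5, 266, 247, 259 and 261 CPM at day 15 and 212, 228, 230 and 252 CPM at day 20. In P58S the 3 ages did not overlap, and in WT day 5 stood above both later ages while day 20 replicate 4 lay within the day 15 range. A share of all genes is given above for days 5 and 20 only, and not for separations that involve day 15. The log2 fold change between days 5 and 20 was -0.9 ± 0.103 SE in P58S (edgeR adjusted p = 1.49e-07) and -0.54 ± 0.103 SE in WT (adjusted p = 0.000444).

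nAChRalpha7, a subunit needed for the fly's giant-fibre escape response, read 674, 682, 836 and 695 CPM at day 5, 619, 620, 594 and 589 CPM at day 15 and 457, 446, 511 and 447 CPM at day 20 in P58S heads. In WT heads it read 720, 610, 676 and 722 CPM at day 5, 514, 558, 553 and 517 CPM at day 15 and 439, 415, 390 and 473 CPM at day 20. The libraries of the 3 ages were separate in both genotypes. The share of all genes with separate ages is given above for days 5 and 20 only, not for all 3 ages. Between days 5 and 20 its log2 fold change was -0.63 ± 0.0857 SE in P58S (edgeR adjusted p = 2.73e-06) and -0.67 ± 0.086 SE in WT (adjusted p = 1.25e-06).

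In edgeR on all libraries the other subunits passed at day 20 in P58S and not in WT, and the difference between the genotypes has its own test below. nAChRalpha2, the least abundant, read 16.5, 13.5, 16.4 and 13.5 CPM at day 5, 13.9, 14.3, 14.4 and 11.6 CPM at day 15 and 8.41, 8.86, 9.53 and 9.72 CPM at day 20 in P58S heads. In WT heads it read 15.8, 9.45, 13.4 and 14.8 CPM at day 5, 12.7, 12.2, 11.3 and 10.7 CPM at day 15 and 16.7, 9.04, 14 and 12.7 CPM at day 20, and all 3 ages overlapped. Its log2 fold change between days 5 and 20 was -0.7 ± 0.191 SE in P58S (edgeR adjusted p = 0.00982) and -0.03 ± 0.192 SE in WT. nAChRalpha1, nAChRalpha3 and nAChRalpha5 had log2 fold changes of -0.42, -0.54 and -0.5 in P58S (edgeR adjusted p from 4.29e-05 to 0.00344) and of -0.23, -0.23 and -0.26 in WT (0.0687 to 0.146). In WT, DESeq2 called nAChRalpha3 (-0.24, adjusted p = 0.0244) and nAChRalpha5 (-0.26, 0.0411), and nAChRalpha5 passed in edgeR without day 5 replicate 2 (0.0488) or 4 (0.0426). Fitting only the 2 groups compared took nAChRalpha1 to an adjusted p of 0.0566 in P58S.

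The muscarinic receptor gene mAChR-A read 72.1, 69.9, 93.2 and 64.3 CPM at day 5, 66.5, 56.7, 57.5 and 61.4 CPM at day 15 and 49, 55.8, 49.6 and 49 CPM at day 20 in P58S heads. In WT heads it read 75.9, 69.4, 79.8 and 70.5 CPM at day 5, 67.3, 59.8, 55.2 and 58.2 CPM at day 15 and 68.8, 58.9, 61.2 and 59.9 CPM at day 20. The P58S libraries of day 20 were below every other library of either genotype except 1 WT library of day 15. The share of all genes with such an order is not given here. The log2 fold change between days 5 and 20 was -0.56 ± 0.114 SE in P58S (edgeR adjusted p = 0.000698) and -0.25 ± 0.114 SE in WT (adjusted p = 0.171).

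Whether age acted differently in the genotypes was tested as an interaction. None of the 10 passed for days 20 against 5 (edgeR, 0.257% of all genes did) or for days 15 against 5 (0.123%), and DESeq2 called 0 for each. For days 20 against 5, 9 of the 10 interaction terms were below 0 (10 of 10 with library size alone), with a median of -0.28 against -0.01 over all genes, and 4 had an unadjusted p under 0.05. They were VAChT (-0.45, 95% interval -0.85 to -0.05), nAChRalpha2 (-0.67, -1.22 to -0.12), nAChRalpha3 (-0.3, -0.55 to -0.06) and nAChRbeta1 (-0.36, -0.65 to -0.06), with adjusted p from 0.395 to 0.433. ChAT (-0.01, -0.27 to 0.26) and nAChRalpha7 (0.04, -0.21 to 0.28) had terms near 0. For days 15 against 5 the median term was -0.07 and 0 of the 10 had an unadjusted p under 0.05. So the count of 10 genes in P58S against 4 in WT is not shown to be a difference between the genotypes.

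**Figure D2:**
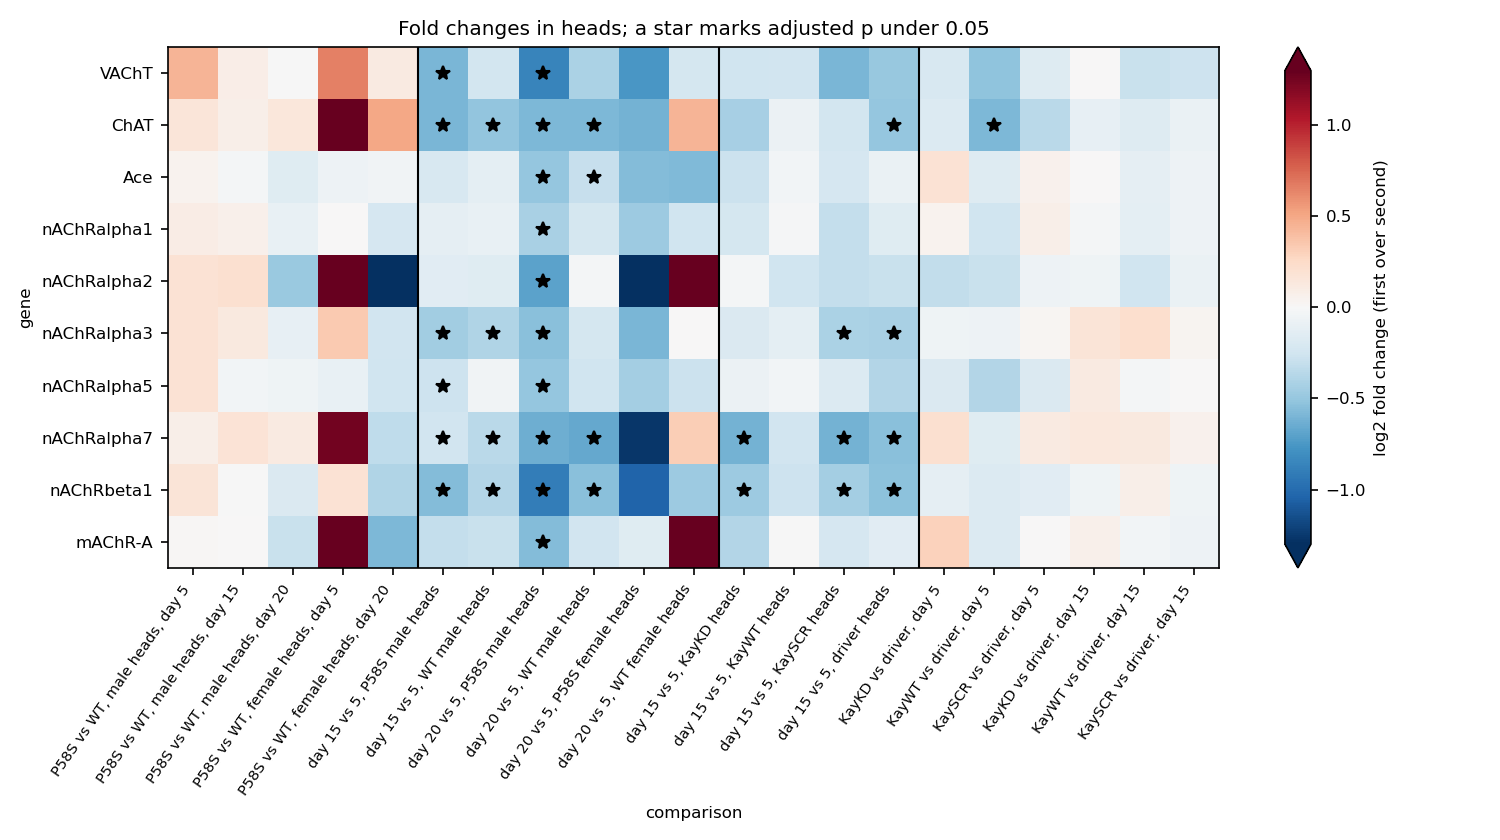
Log2 fold change (colour, with extremes beyond the scale drawn at its ends) of each gene in 21 head comparisons, grouped by genotype contrasts, age contrasts and kay arm contrasts; a star marks adjusted p under 0.05 over all genes tested. Stars fill the P58S column for days 20 against 5 and mark 4 genes in the WT column.

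Other cell markers moved with age as well. Summed CPM of the 10 pan-neuronal genes was 8937 to 11231 at day 5, 7502 to 8585 at day 15 and 7324 to 8048 at day 20 in P58S heads, and 8207 to 8747, 7144 to 7787 and 6878 to 8063 in WT heads. Of these, 6 fell in P58S and 4 in WT between days 5 and 20 (medians -0.45 and -0.24). Of 8 genes of other transmitters, 5 fell in P58S and 3 in WT (medians -0.44 and -0.37). Of 8 glial genes, 3 fell in each genotype (medians -0.21 and -0.28), and their summed CPM was 4493 to 5613 at day 20 and 5116 to 9291 at day 5 in P58S heads, and 3768 to 5509 at day 20 and 4218 to 5578 at day 5 in WT heads. Of 7 muscle genes, 4 fell in each genotype (medians -0.32 and -0.61). Photoreceptor genes did not share this direction, since of 8 of them 1 rose and 1 fell in P58S (median 0.02) and 3 rose and 1 fell in WT (median 0.3). Their sums were 17378 to 22004 CPM at day 20 and 20741 to 26020 CPM at day 5 in P58S heads, and 16424 to 25551 CPM at day 20 and 15134 to 17397 CPM at day 5 in WT heads. Of 4 fat body genes tested 0 passed in P58S (median -0.23; edgeR, with 0 at an unadjusted p under 0.05) and 1 rose in WT (median 0.32). The part of these markers in the change of the 10 genes was not tested, and in bulk heads fewer cholinergic cells and less RNA per cell cannot be told apart. Replicate 3 of P58S day 5 was the highest library for 7 of the 10 genes, for the neuronal sum and for the glial sum, and without it all 10 genes still fell between days 5 and 20 in P58S.

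Other genes of cholinergic synapses were read from a list of 12 names, of which 10 matched and 9 were tested in male heads. Between days 5 and 20, 6 of the 9 fell in P58S (median log2 fold change -0.46) and 4 in WT (median -0.39). Of all genes 8.61% fell in P58S (median 0) and 5.64% in WT (median 0.01). The largest in P58S were ChT, a choline transporter (-0.58, edgeR adjusted p = 0.0233), hig, a secreted protein of cholinergic synapses (-0.55, 0.00153), nAChRalpha4 (-0.51, 0.0192) and Hasp, a scaffold for hig (-0.5, 0.000353). Those in WT were nAChRbeta2 (-0.73, 0.0325), nAChRalpha4 (-0.51, 0.0269), Hasp (-0.47, 0.00104) and qvr, a small membrane protein that acts on nicotinic receptors and potassium channels (-0.39, 0.00176). By day 15, nAChRalpha6 had fallen in P58S (-0.38, 0.0109), and Hasp had fallen in WT (-0.31, 0.0253), where ChT had risen (0.63, 0.0185). Of all genes 7.54% fell in P58S and 7.2% in WT by that age. With age in the driver set, nAChRalpha6 fell in the driver (-0.35, edgeR adjusted p = 0.0385; 3.4% of all genes fell). In KayKD nAChRbeta2 (-0.93, 0.0303), Hasp (-0.44, 0.0213) and qvr (-0.36, 0.0326) fell, against 2.87% of all genes. The muscarinic gene mAChR-C had 0 reads in 54 of 56 male libraries.

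In the comparison of genotypes, 1 gene of this list passed in male heads. nAChRalpha6, the subunit that spinosyn insecticides act on, had 796, 956, 1281 and 1026 CPM in P58S heads at day 5, against 783, 708, 746 and 753 CPM in WT heads. All 4 P58S libraries lay above the WT ones, as for 2.81% of all genes. The log2 fold change was 0.44 ± 0.102 SE (edgeR adjusted p = 0.0127), and 1.93% of all genes passed at that age. The highest value, 1281 CPM, came from replicate 3 of P58S, which also had the highest neuronal sum of its group (11231 CPM). Alternative and leave-one-out runs covered the 10 chosen genes and not this list, so how stable this call is was not tested. At days 15 and 20 none of the 9 passed, nor had any an unadjusted p under 0.05.

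The kay arms ask whether altering Fos in glia changes these genes in P58S heads. All 3 arms were compared with the same driver libraries. Against the driver at day 5, 0 of the 10 passed in KayKD, 1 in KayWT and 0 in KaySCR (edgeR over 9796 genes; 3.58%, 5.51% and 2.93% of all genes). At day 15 it was 0 in each arm (1.44%, 1.58% and 1.03%). DESeq2 called 3 in KayWT at day 5 and 0 elsewhere, and unadjusted p was under 0.05 for 1, 3 and 1 genes at day 5 and for 0 in each arm at day 15.

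The gene that passed was ChAT, with 124, 125, 123 and 114 CPM in KayWT heads at day 5, against 127, 223, 209 and 172 CPM in driver heads. All 4 KayWT libraries lay below the driver libraries, by a small margin for replicate 1 of the driver, and the driver libraries were widely spread. The log2 fold change was -0.58 ± 0.147 SE (edgeR adjusted p = 0.0105), while 2.6% of all genes fell. It was lost without driver replicate 2 (-0.46, edgeR adjusted p = 0.0983) or driver replicate 3 (-0.51, 0.0527), and when only these 2 groups were fitted (-0.59, 0.085). At day 15 ChAT had 120, 106, 116 and 117 CPM in KayWT heads, against 153, 117, 120 and 126 CPM in driver heads (log2 fold change -0.17 ± 0.146 SE), with overlap. nAChRalpha7 was the other gene without overlap at day 5, with KayWT below the driver as for 4.18% of all genes (log2 fold change -0.16, edgeR adjusted p = 0.44).

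VAChT had 238, 195, 308 and 171 CPM in KayWT heads at day 5, against 292, 335, 408 and 276 CPM in driver heads (log2 fold change -0.52 ± 0.179 SE, edgeR adjusted p = 0.0806). KayWT replicate 3 was above the lowest driver libraries, and without it the log2 fold change was -0.69 with an edgeR adjusted p of 0.0163. nAChRalpha5 had 428, 347, 424 and 362 CPM in KayWT heads and 365, 549, 688 and 435 CPM in driver heads (log2 fold change -0.38 ± 0.131 SE, adjusted p = 0.0753), and passed without driver replicate 1 (0.00613) or 4 (0.043). All 10 fold changes of KayWT at day 5 were below 0, with a median of -0.22 against 0.02 over all genes. In the same comparison 2 of the 10 pan-neuronal genes fell, with a median of -0.26 and summed levels of 7287 to 8704 CPM in KayWT heads and 8576 to 11497 CPM in driver heads. Of the 7 muscle genes 3 fell (median -0.5). Genes of other transmitters went the other way, with 1 of 8 higher (ple, tyrosine hydroxylase of dopamine synthesis; median of the list 0.34) and sums of 794 to 812 CPM in KayWT heads and 638 to 765 CPM in driver heads, without overlap. Of the 8 glial and the 8 photoreceptor genes 1 rose and 1 fell each (medians -0.08 and -0.07). The part of these lists in the 10 genes was not tested. Medians of the 10 in the other arms at day 5 were -0.09 in KayKD and -0.03 in KaySCR, and at day 15 they were 0.01 in KayKD (-0.1 with library size alone, which moved the median of all genes to -0.13), -0.08 in KayWT and -0.07 in KaySCR. In KaySCR at day 15 single genes lay between -0.27 (VAChT) and 0.06 (nAChRalpha7). nAChRalpha3 at day 15 read 214, 195, 211 and 208 CPM in KayKD heads and 193, 187, 163 and 192 CPM in driver heads, the only gene of the 10 without overlap there (log2 fold change 0.17, edgeR adjusted p = 0.632; 3.59% of all genes were higher in this way).

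ChAT in KaySCR at day 5 read 128, 180, 120 and 142 CPM, against 127, 223, 209 and 172 CPM in driver heads (log2 fold change -0.35 ± 0.147 SE, edgeR adjusted p = 0.206). It passed without driver replicate 1 (-0.49, 0.0284). In KayKD at day 5 the largest differences were mAChR-A, at 86.6, 67.6, 93.9 and 99.1 CPM in KayKD heads and 62.4, 81.2, 64.6 and 72.2 CPM in driver heads, and nAChRalpha2, at 10.8, 12.6, 11.2 and 12.9 CPM in KayKD heads and 10.5, 18.3, 18.8 and 12.1 CPM in driver heads. Their log2 fold changes were 0.3 (interval -0.03 to 0.64) and -0.32 (interval -0.9 to 0.27), and both pairs of groups overlapped.

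**Figure D3:**
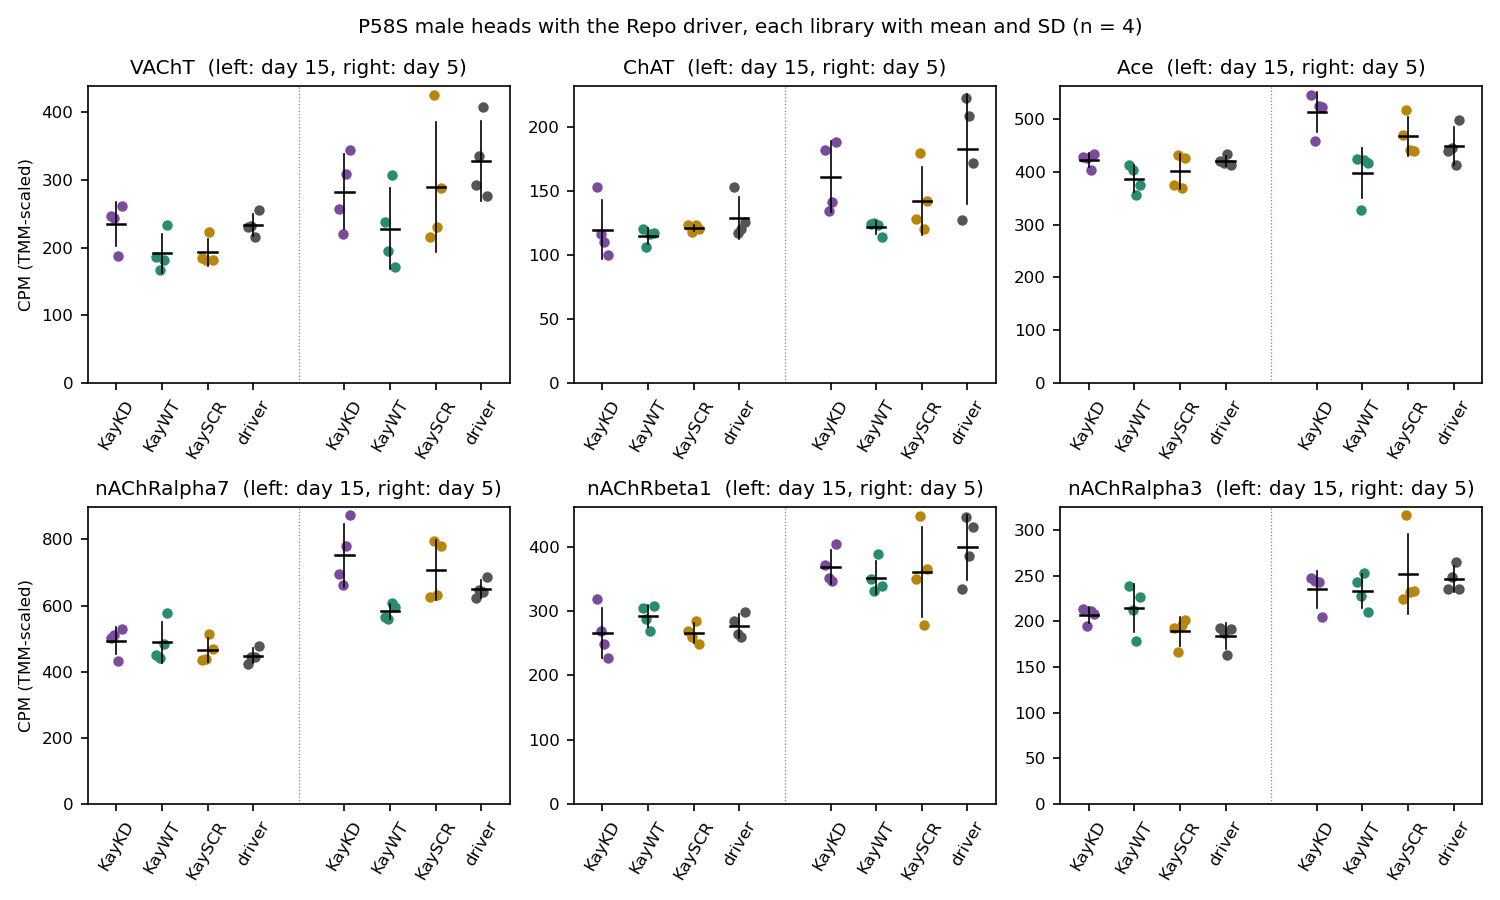
Level of 6 of the genes in P58S male heads with the Repo driver (CPM, TMM-scaled, from 0), day 15 in the left part and day 5 in the right part of each panel, with KayKD, KayWT and KaySCR left of the driver; points are libraries, and bars the mean and SD of 4. ChAT at day 5 sits at 122 ± 5.35 CPM in KayWT and 183 ± 42.7 CPM in the driver, and nAChRalpha7 and nAChRbeta1 have lower means at day 15 than at day 5 in each arm (in KayWT neither passed the test).

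Between days 5 and 15 the drop of nAChRalpha7 and nAChRbeta1 was seen again in this set of libraries. In KayKD heads 2 of the 10 fell, nAChRalpha7 (-0.61, edgeR adjusted p = 9.99e-05) and nAChRbeta1 (-0.47, 0.00857), with 5.7% of all genes changed and 2.87% lower. In KaySCR heads 3 fell, nAChRalpha7 (-0.61, 0.000124), nAChRbeta1 (-0.44, 0.0312) and nAChRalpha3 (-0.41, 0.0442), with 1.93% of all genes changed and 1.31% lower. In driver heads 4 fell, nAChRalpha7 (-0.54, 0.000387), nAChRbeta1 (-0.53, 0.00223), nAChRalpha3 (-0.42, 0.0171) and ChAT (-0.5, 0.0299), with 6.1% changed and 3.4% lower. In KayWT heads 0 passed in edgeR and in DESeq2, with 1.73% of all genes changed and 2 of the 10 at an unadjusted p under 0.05, nAChRalpha7 (-0.25) and nAChRbeta1 (-0.27).

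Values for nAChRalpha7 show the pattern. KayKD heads had 503, 511, 434 and 528 CPM at day 15, against 695, 661, 781 and 874 CPM at day 5. KayWT heads had 452, 443, 484 and 577 CPM at day 15, against 567, 560, 607 and 596 CPM at day 5. KaySCR heads had 436, 440, 515 and 469 CPM at day 15, against 625, 794, 632 and 780 CPM at day 5, and driver heads had 423, 446, 444 and 478 CPM at day 15, against 624, 648, 641 and 686 CPM at day 5. The ages overlapped in KayWT alone, where replicate 4 of day 15 was high. The share of all genes whose ages did not overlap in these groups is not given here.

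Muscle genes fell with age in these libraries as well, 5 of 7 in the driver (median -1.18), 3 in KayKD (-0.59), 2 in KayWT (-0.3) and 4 in KaySCR (-0.81). Of the 10 pan-neuronal genes 2 fell in the driver, 0 in KayKD, 0 in KayWT and 1 in KaySCR in edgeR, with 5, 4, 1 and 6 at an unadjusted p under 0.05. Photoreceptor sums were higher at day 15 without overlap in KayKD (18464 to 35798 CPM, against 12600 to 14830 CPM at day 5), KayWT (13791 to 23199 CPM, against 9638 to 12571 CPM) and KaySCR (16141 to 17639 CPM, against 12634 to 13630 CPM). In the driver they overlapped (12508 to 15061 CPM at day 15 and 11228 to 13284 CPM at day 5). The part of these lists in the 10 genes was not tested. Not all of these calls were stable. The KaySCR calls of nAChRalpha3 and nAChRbeta1 held in 4 and 7 of 14 alternatives, and without replicate 2 of day 5, the highest library for both, their edgeR adjusted p was 0.399 and 0.26. They were also lost without day 5 replicate 4 (0.0641 and 0.0832) and without day 15 replicates 1, 2 or 4 (0.0653 to 0.245 for nAChRalpha3, 0.0801 to 0.112 for nAChRbeta1), and nAChRalpha3 without day 15 replicate 3 (0.0693). The driver call of ChAT held in 7 of 14 and was lost without day 5 replicate 2 (0.185) or 3 (0.116) or day 15 replicates 2, 3 or 4 (0.0716 to 0.11). The driver call of nAChRalpha3 was lost without replicate 3 of day 5 (0.066) or of day 15 (0.0939), and the KayKD call of nAChRbeta1 without day 15 replicate 4 (0.0646). The nAChRalpha7 calls of all 3 groups held in 14 of 14.

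Whether the arms aged differently from the driver was tested as an interaction, and 0 of the 10 passed in KayKD, KayWT or KaySCR (edgeR; 0.194%, 0.163% and 0.0715% of all genes). DESeq2 called 0 in each, and 0 of the 10 had an unadjusted p under 0.05. The KayWT terms were all above 0, with a median of 0.25 against -0.02 over all genes, and the largest was that of ChAT (0.41, 95% interval 0 to 0.83). Every KayWT term uses the same driver libraries, so the terms are not independent of the day 5 differences above.

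In female heads the tables came from another library kit and were normalized on their own, so levels are given beside those of males without a test between sexes. WT female heads at day 5 had 2 shallow libraries, replicate 2 with 0.201 M and replicate 4 with 0.386 M reads, where 3 reads equal 15 and 7.77 CPM. In replicate 2 ChAT was listed at 4.98 CPM, which is 1 read, and mAChR-A at 0. The most abundant were Ace (230 ± 40.3 CPM), nAChRalpha7 (213 ± 22.2 CPM) and nAChRalpha5 (206 ± 12.1 CPM) in P58S heads at day 20, with overlapping ranges, and nAChRalpha2 (4.43 ± 2.97 CPM) was the lowest (SD, n = 4 each). None of the 10 genes passed in limma, on log2(CPM + 1), at day 5 or day 20, when 0.0519% and 0.0311% of 9640 genes did. Unadjusted p was under 0.05 for 4 genes at day 5 and 1 at day 20.

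nAChRalpha7 showed the clearest difference in P58S female heads at day 5, with 402, 489, 530 and 645 CPM, against 340, 199, 279 and 109 CPM in WT. The P58S libraries all lay above the WT ones, which was so for 4.15% of all genes. The log2 fold change was 1.25 ± 0.322 SE with a limma adjusted p of 0.19, and with edgeR on the reads recovered from the CPM steps it was 1.18 with an adjusted p of 0.0461. Without the 2 shallow libraries it was 0.72 (adjusted p = 0.624 in limma), without WT replicate 1 it was 1.48 (0.0219), and with each library centred on its median gene it was 0.13. Centring shifted every gene alike, taking the median of all genes from 0.65 to -0.47, and nAChRalpha7 lay above that median both times.

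Other differences at day 5 moved with the shallow WT libraries. ChAT had 119, 159, 113 and 132 CPM in P58S heads, against 135, 4.98, 51.3 and 93.2 CPM in WT heads, with a log2 fold change of 1.54 (limma adjusted p = 0.287) that became 0.63 without the shallow libraries. VAChT had 215, 155, 194 and 207 CPM in P58S heads and 184, 89.7, 109 and 122 CPM in WT heads (0.65, limma adjusted p = 0.345; 0.43 without them). The median of the 10 was 0.5, with 7 above 0, and without the shallow libraries 0.23 with 7 above 0, while it was -0.62 with 6 below 0 after centring. Centring moved all genes alike, so that their median was 0.65 before it and -0.47 after it, and the median of the 10 lay below that of all genes both times. At day 20 the median of the 10 was -0.25, with 8 below 0 (-0.22 and 8 after centring), where that of all genes was 0.16 and, after centring, 0.2. nAChRalpha2 was the only gene without overlap at that age, at 1.03, 2.86, 7.08 and 6.74 CPM in P58S heads and 35, 14, 27.3 and 9.81 CPM in WT heads (log2 fold change -2.1, limma adjusted p = 0.962); 2.06% of all genes were lower in this way.

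Between days 5 and 20, P58S female heads showed lower levels of every one of the 10 genes, with a median log2 fold change of -0.6 against -0.05 over all genes (-0.54 against 0.01 after centring) and 0 calls in limma against 0.27% of all genes. The edgeR test on recovered reads called 1, and 4 had an unadjusted limma p under 0.05. nAChRalpha7 had 196, 214, 244 and 197 CPM at day 20, against 402, 489, 530 and 645 CPM at day 5 (log2 fold change -1.26 ± 0.322 SE, limma adjusted p = 0.167; edgeR -1.19, adjusted p = 0.0141). nAChRbeta1 had 112, 99.4, 106 and 110 CPM at day 20, against 214, 252, 203 and 218 CPM at day 5 (-1.04 ± 0.308 SE, limma adjusted p = 0.345; edgeR -0.96, 0.143). Neither gene's ages overlapped. Day 20 lay wholly below day 5 for 8 of the 10, against 5.67% of all genes. VAChT had 116, 99.7, 138 and 101 CPM at day 20, against 215, 155, 194 and 207 CPM at day 5 (-0.76 ± 0.313 SE), again without overlap. Other lists were lower at day 20 as well. The 9 neuron genes summed to 3353 to 3656 CPM at day 20, against 4415 to 5160 CPM at day 5, and the genes of other transmitters to 440 to 536 CPM, against 599 to 714 CPM, both without overlap. In limma 0 of these 9 and 0 of these 8 passed, with 4 and 0 at an unadjusted p under 0.05 (medians -0.49 and -0.44). Of 7 muscle genes 1 fell (median -0.73; 3934 to 4347 CPM at day 20, against 4914 to 6510 CPM at day 5, without overlap). Photoreceptor sums overlapped (19980 to 28547 CPM at day 20 and 19066 to 27112 CPM at day 5). The part of these lists in the 10 genes was not tested.

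WT female heads between the same ages had a median of -0.11 with 5 of the 10 below 0, against 0.35 over all genes. There were 0 calls against 0.975% of all genes, and edgeR on recovered reads also called 0. Unadjusted limma p was under 0.05 for 3 of the 10, while kay, with an unadjusted limma p of 0.0573, ranked 1616 of the 9640 genes. Without the shallow libraries the median was -0.34 with 8 below 0, and after centring -1.22 with 8 below 0, where the median of all genes was -0.75. nAChRalpha2, at 35, 14, 27.3 and 9.81 CPM at day 20 and 0.548, 0, 21.3 and 2.59 CPM at day 5, had a log2 fold change of 2.6 (limma adjusted p = 0.202), and passed without day 5 replicate 3 (3.51, 0.0449). The remaining day 5 values, 0.548, 0 and 2.59 CPM, all lay below the value of 3 reads in their libraries (0.821, 15 and 7.77 CPM). In the interaction of age and genotype 0 of the 10 passed in limma and in edgeR (0% of all genes in limma), and the median of the 10 was -0.58 against -0.38 over all genes, or 0.58 against 0.78 after centring, below that of all genes both times.

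In female guts these genes were close to the limit of detection, apart from Ace. nAChRalpha5 was above it in all 4 WT libraries of day 20, but not in every P58S library of that age. A count of 0 allowed up to 0.317 to 3.2 CPM there, and nAChRalpha2 and mAChR-A did not reach 1 CPM in 4 libraries, so 8 of the 10 were tested. Ace had 43.7, 44.5, 25.6 and 37.7 CPM in P58S guts and 42.1, 16, 36.7 and 19.2 CPM in WT guts at day 20, and 16.9, 27, 19.3 and 18.3 CPM in P58S guts and 18.7, 18.1, 27.9 and 14.9 CPM in WT guts at day 5. nAChRalpha5 had 2.49, 4.78, 2.13 and 5.68 CPM in P58S guts and 6.63, 7.38, 10 and 6.02 CPM in WT guts at day 20, without overlap (log2 fold change -0.89, limma adjusted p = 0.716). P58S libraries were wholly below WT ones for 2.46% of all genes. The P58S value of 2.13 CPM lay below the 3.2 CPM that 3 reads equal in its library.

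None of the 8 passed between genotypes at day 5 or day 20 (0.133% and 0.365% of 9036 genes), between ages in P58S or WT (0.299% and 0.21%), or in the interaction (0%), and edgeR on recovered reads called 0 in each. Between genotypes the log2 fold changes lay between -0.58 (nAChRalpha5) and 0.78 (nAChRalpha7) at day 5 and between -0.89 (nAChRalpha5) and 0.76 (nAChRalpha3) at day 20. Unadjusted p was under 0.05 for 1 gene, Ace between days 20 and 5 in P58S (log2 fold change 0.85 ± 0.353 SE, limma adjusted p = 0.336). The 9 pan-neuronal genes of the female tables summed to 247 to 361 CPM in P58S guts at day 20 and 142 to 259 CPM at day 5, and the members' sum was 48 to 60.5 CPM and 25.6 to 37.9 CPM. Most of the members' sum was Ace, with means of 37.9 of 53.7 CPM at day 20 and 20.4 of 29.4 CPM at day 5.

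Because VAChT and ChAT start from a shared exon, the ratio of their reads was compared within libraries. In male heads at day 5 the ratio was 1.53, 1.48, 1.26 and 1.54 in P58S, against 1.38, 1.03, 1.21 and 1.13 in WT. P58S replicate 3 lay below WT replicate 1, and the log2 difference of 0.29 had an exact two-sided permutation p of 0.0571, or 0.629 with Benjamini-Hochberg adjustment over 11 comparisons; 4 libraries against 4 cannot give less than 0.0286. The difference was 0 at day 15 and -0.17 at day 20 (exact permutation p = 1 and 0.429). In the kay arms the 6 differences from the driver lay between -0.19 and 0.13. A lone difference could not have passed at this group size after adjustment over 11 comparisons, whatever its size.

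Across the male groups the mean ratio ran from 1.19 to 1.45 in the genotype set and from 1.6 to 2.01 in the driver set, so VAChT reads exceeded ChAT reads in every male library. In female heads it was 1.5, 1.08, 1.85 and 1.07 in P58S and 1.78, 1.62, 1.29 and 2.47 in WT at day 20. At day 5 it was 1.82, 0.972, 1.73 and 1.56 in P58S and 1.37, 18, 2.12 and 1.31 in WT, where the value of 18 rests on 1 ChAT read.

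**Figure D4:**
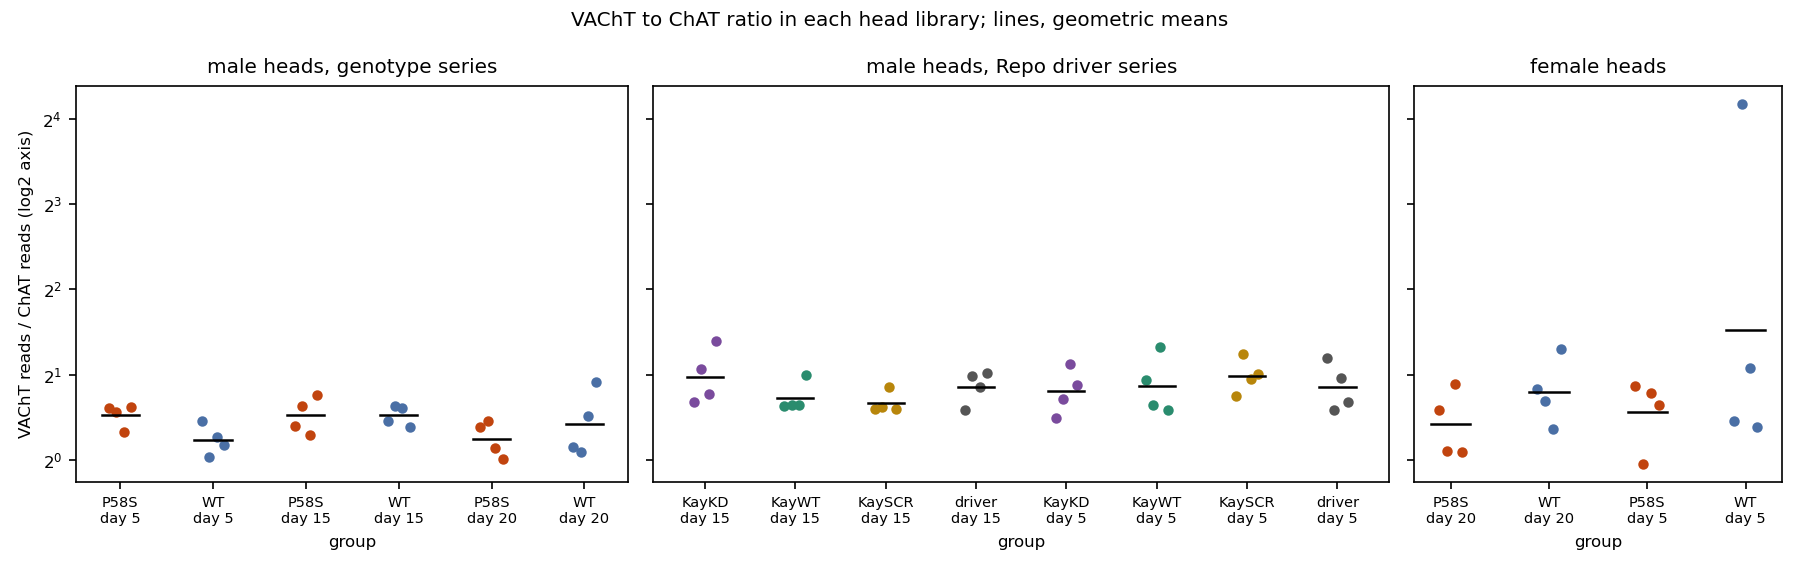
Ratio of VAChT to ChAT reads in each head library (log2 axis), by group, with lines at the geometric mean; P58S stands left of WT, and the kay arms left of the driver. Ratios sit between 1.01 and 2.62 in males, and the female WT library at 18 stands alone.

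Genes with a pattern like that of the 10 were ranked over the 24 male genotype libraries by Pearson correlation of log2 CPM, given as a description, since these libraries fall into age groups and share their scaling. Outside the cholinergic lists, the genes most like the mean standardized level of the 10 were cpx (0.945), nrv3 (0.944), Rdl (0.935), NetB (0.928) and pros (0.926). Those most like the mean of VAChT and ChAT were Mid1 (0.949), nrv3 (0.936), Pkc98E (0.934), Ten-a (0.932) and jef (0.93).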

How the data were processed

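Libraries were made with different 3′ mRNA sequencing kits for males and females, after phenol-chloroform extraction, per the labels' protocols. The authors deposited raw counts per feature for male heads; 6166 of the 23996 features are not genes, took 0.1696 to 0.2597% of reads, and were left out. For females the authors deposited log2 CPM with a floor; these were turned back to CPM, and 100% of values came out as whole reads within 0.1 read. The build was dm6, per the submitters' processing notes; the aligner and counter were not given in the sources used here.

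Groups came from the labels. Male sets were fitted separately in edgeR 4.0.16 (R 4.3.3) with TMM, filterByExpr and the quasi-likelihood test with Benjamini-Hochberg adjustment, on 9741 and 9796 genes. Each female tissue was fitted with limma 3.58.1 on log2(CPM + 1) after dropping genes that did not reach 1 CPM in 4 or more libraries. Calls needed an adjusted p under 0.05, and intervals are 95%. Counts at an unadjusted p under 0.05 are given without the share of all genes at that level, so they carry no background. A count of 0 allows 3 reads, or 0.182 to 1.21 CPM (male genotype set), 0.2 to 2.49 (driver set), 0.44 to 15 (female heads) and 0.317 to 3.2 (guts); such limits cover counting error only. The VAChT to ChAT ratio was compared by exact permutation in SciPy 1.17.1. No 2 libraries agreed within sampling noise, and the tests were tried on simulated data. The rule for named genes took all 10 in each comparison and up to 4 further pathway genes past the threshold, by size of change; genes that did not pass are given in part by ranges, medians and a heat map. The members and lists were chosen with earlier results of these data known.

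Alternatives were DESeq2 1.42.0, another normalization, no filter, only the groups compared, a replicate block, other pseudocounts, centring on the median gene, edgeR on recovered reads, and leaving out each library or those under 1 M reads. Scaling by library size alone, and edgeR on recovered reads without libraries under 1 M reads, were chosen after seeing the data.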

Additional observations from a re-analysis of the deposited data

Results flagged for a closer look

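A library was singled out where its gap to the nearest other library of its group of 4 took up more of the group's range than Dixon's 95% critical value allows. Of 218 pairs of gene and group, 23 did so, and chance flags about 1 in 20 groups. Values are CPM.

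Replicate 3 of P58S male heads at day 5 was high for nAChRalpha1 (349), nAChRalpha5 (568) and nAChRalpha7 (836), and the same library had the highest neuronal sum (11231) and glial sum (9291) of its group. KaySCR replicate 2 at day 5 was high for nAChRalpha1 (354) and nAChRalpha3 (317), with a neuronal sum of 11038 against 7673 to 8985 in the other libraries. In the other male groups the high libraries were nAChRalpha7 in P58S at day 20, replicate 3 (511), mAChR-A in P58S at day 20, replicate 2 (55.8), and VAChT in KaySCR at day 15, replicate 3 (223). The low libraries were nAChRalpha1 in WT at day 15, replicate 2 (233), Ace in KayWT at day 5, replicate 2 (327), nAChRalpha3 in KayKD at day 5, replicate 4 (205), and mAChR-A in KaySCR at day 15, replicate 4 (56.8).

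In female heads, P58S replicate 3 at day 5 was low for Ace (297) and high for nAChRalpha2 (27.7). WT replicate 3 at day 5 was high for nAChRalpha2 (21.3), and at day 20 WT replicate 2 was high for ChAT (85.9) and replicate 1 for nAChRalpha1 (199).

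In guts, where levels are near the value of 3 reads, the high libraries in P58S at day 5 were replicate 2 for VAChT (2.87) and replicate 1 for nAChRalpha2 (0.219). In WT guts at day 5 they were replicate 1 for ChAT (1.81), replicate 2 for nAChRalpha1 (3.93) and replicate 3 for mAChR-A (0.336), and at day 20 replicate 3 for nAChRalpha1 (3.3).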

How the results depend on the processing

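Of 5059 values for single genes and ratios recomputed, 4964 kept their side of the threshold, 58 were no longer past it and 37 became so. Of values past it in the main or the alternative run, 0 changed sign. Changes of sign among values past it in neither run were not counted. Such changes occurred, as in WT male heads at days 15 against 5, where 4 of the 10 were above 0 with library size alone. Of 34 calls, 21 held under every alternative run. Counts of the 10 genes that moved by over 1.5 times were these. DESeq2 called 7 in WT male heads at days 20 against 5, where edgeR called 4, and 3 in KayWT against the driver at day 5, where edgeR called 1. Library size alone called 1 in WT at days 15 against 5 (4 with TMM), 3 in KayWT at day 5, and, at days 15 against 5, 2 in the driver (4) and 1 in KaySCR (3). Fitting only the groups compared left 0 in KayWT at day 5 and 1 in KaySCR with age. The edgeR test on recovered reads called 1 in female heads for P58S against WT at day 5 and 1 for age in P58S, where limma called 0. The causes were not tested. Smaller moves came in P58S male heads at days 15 against 5 (6 calls), with 8 in DESeq2 and 4 each with library size alone, without the filter and with only the groups compared. At days 20 against 5 library size alone gave 3 in WT, and fitting only the groups compared gave 9 in P58S. With age in the driver set DESeq2 called 6 in the driver, 3 in KayKD and 4 in KaySCR, and leaving out the filter gave 2 in KaySCR.

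Leaving out each library gave 0 to 1 calls for P58S against WT in male heads at day 5 and in female heads at day 5, and 0 to 1 for age in WT female heads. With age in males it gave 4 to 7 in P58S by day 15, 10 to 10 by day 20, 4 to 4 and 3 to 6 in WT, 2 to 5 in the driver, 1 to 3 in KayKD and 1 to 4 in KaySCR. Against the driver at day 5 it gave 0 to 2 in KayWT and 0 to 1 in KaySCR.

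Replicate numbers were not treated as pairs, since in no comparison did all 4 same-numbered pairs correlate above 0.1. That rule cannot exclude pairing. The same number was the best match for 3 of 4 in P58S male heads at days 15 against 5 and in WT female guts at days 20 against 5. With a replicate block, 4 of the 10 were called in P58S male heads at days 15 against 5 (6 without it) and 2 in KaySCR with age (3 without it), and no other count moved.

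Depth limits the female results: 2 WT head libraries at day 5 held 0.201 and 0.386 M reads, and most of these genes in guts lie near the value of 3 reads.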
